A study of Mus musculus with 20 samples.

Results

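The nuclear lamina and the inner nuclear membrane were followed through 10 genes, chosen by name as partners of a nuclear envelope protein that had been removed from fat cells. They are the lamin genes *Lmna*, *Lmnb1* and *Lmnb2*, the LEM domain genes *Emd*, *Tmpo* and *Lemd3* with their DNA-binding partner *Banf1*, the lamin B receptor gene *Lbr*, and the SUN genes *Sun1* and *Sun2*. The rule used gene names and not a measured value, and all 10 were found among the 36611 genes of the table. RNA was sequenced from inguinal subcutaneous white adipose tissue (iWAT), the fat depot of the groin, of 20 female C57BL/6 mice. Controls were littermates labelled wild type, which carry the floxed *Tmem120a* gene without Cre. *Ad-Tmem120a*-/- mice, called knockout below, carry the floxed gene and a Cre driven by the adiponectin promoter, so that the gene is cut in adipocytes while the other cells of the depot keep it. Each genotype was kept for 15 weeks on food with 10.5% of fat (LFD, the low fat diet) or with 58% (HFD, the high fat diet) and was 6 months old at collection. The 4 groups held 5 mice each, with the labels numbering control LFD mice 1 to 5, knockout LFD mice 6 to 10, control HFD mice 11 to 15 and knockout HFD mice 17 to 21.

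Lamins are intermediate filament proteins that form a meshwork under the inner nuclear membrane. *Lmna* gives lamins A and C by alternative splicing, *Lmnb1* and *Lmnb2* give the B-type lamins, and human *LMNA* mutations cause familial partial lipodystrophy, in which fat depots are lost. Emerin, LAP2 (from *Tmpo*) and MAN1 (from *Lemd3*) carry a LEM domain that binds BAF, the small chromatin protein made by *Banf1*. LBR holds heterochromatin at the envelope together with A-type lamins, and SUN1 and SUN2 reach across the envelope to nesprins and so couple the nucleus to the cytoskeleton. *Tmem120a* encodes a transmembrane protein of the same envelope.

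The libraries held 54605101 to 92387737 estimated counts each. *Tmem120a* itself stood at 57.9, 68.2, 85.6, 132 and 83.6 TPM (a level scaled for transcript length and sequencing depth) in control LFD mice 1 to 5 and at 29.9, 74.0, 53.7, 21.5 and 28.4 TPM in knockout LFD mice 6 to 10. On HFD it stood at 196, 109.9, 114, 83.3 and 93.6 TPM in control mice 11 to 15 and at 69.2, 29.5, 29.9, 39.8 and 89.7 TPM in knockout mice 17 to 21. The means were lower in knockout mice on both diets, but knockout mice 7 (LFD) and 21 (HFD) lay above the lowest control of their diet. With edgeR the log2 fold change was -1.61 (SE 0.34, 95% interval -2.36 to -0.86, adjusted p = 0.929) on LFD and -1.67 (SE 0.29, 95% interval -2.30 to -1.04, adjusted p = 0.173) on HFD. Neither passed the call threshold of an adjusted p under 0.1 in edgeR, while DESeq2 called both (adjusted p = 0.0025 on LFD and 3.17e-06 on HFD). With both diets in 1 edgeR fit it was called at -1.64 (SE 0.24, 95% interval -2.14 to -1.15, adjusted p = 0.00452), a call that limma on TPM did not make (-1.19, adjusted p = 0.161). In whole tissue, fewer cells of a type and less RNA per cell cannot be told apart. Adipocyte markers fitted the labelled tissue, as the summed level of 10 of them (*Adipoq*, *Plin1* and others) was 20059 to 41694 TPM. A list of 15 genes of skeletal muscle fibres was spread far more widely, from 9.09 to 3921 TPM summed.

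Over the 20 mice the 10 genes fell into an order that most libraries kept at the lower end. Mean levels were 39.9 ± 7.22 TPM for *Tmpo* (SD, n = 20), 39.5 ± 17.7 for *Banf1*, 28 ± 10.4 for *Lmna* and 19 ± 3.21 for *Emd*. They were 18.3 ± 3.45 TPM for *Sun1*, 15.8 ± 2.82 for *Lbr*, 15.0 ± 7.46 for *Sun2*, 6.92 ± 3.18 for *Lmnb1*, 3.28 ± 0.429 for *Lemd3* and 1.39 ± 0.429 for *Lmnb2*. Neighbours in this order did not always part: *Tmpo* exceeded *Banf1* in 11 of 20 libraries, *Emd* exceeded *Sun1* in 13 and *Lbr* exceeded *Sun2* in 11. *Lmna* exceeded *Emd* in 19 libraries and *Lemd3* exceeded *Lmnb2* in all 20. The lamin A and C gene was thus above both B-type lamin genes in these means. The genes also differed in spread. *Sun2*, *Lmnb1* and *Banf1* had coefficients of variation of 49.8%, 46.0% and 44.8%, against 13.1% for *Lemd3* and 16.8% for *Emd*. The place and spread of *Lmnb1* include a short transcript annotated as retained intron, which took 53.3% of its TPM on average. That transcript was listed at 0 in 4 libraries. The full length *Lmnb1* transcript alone averaged 2.70 TPM, below the mean of *Lemd3*.

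**Figure D1:**
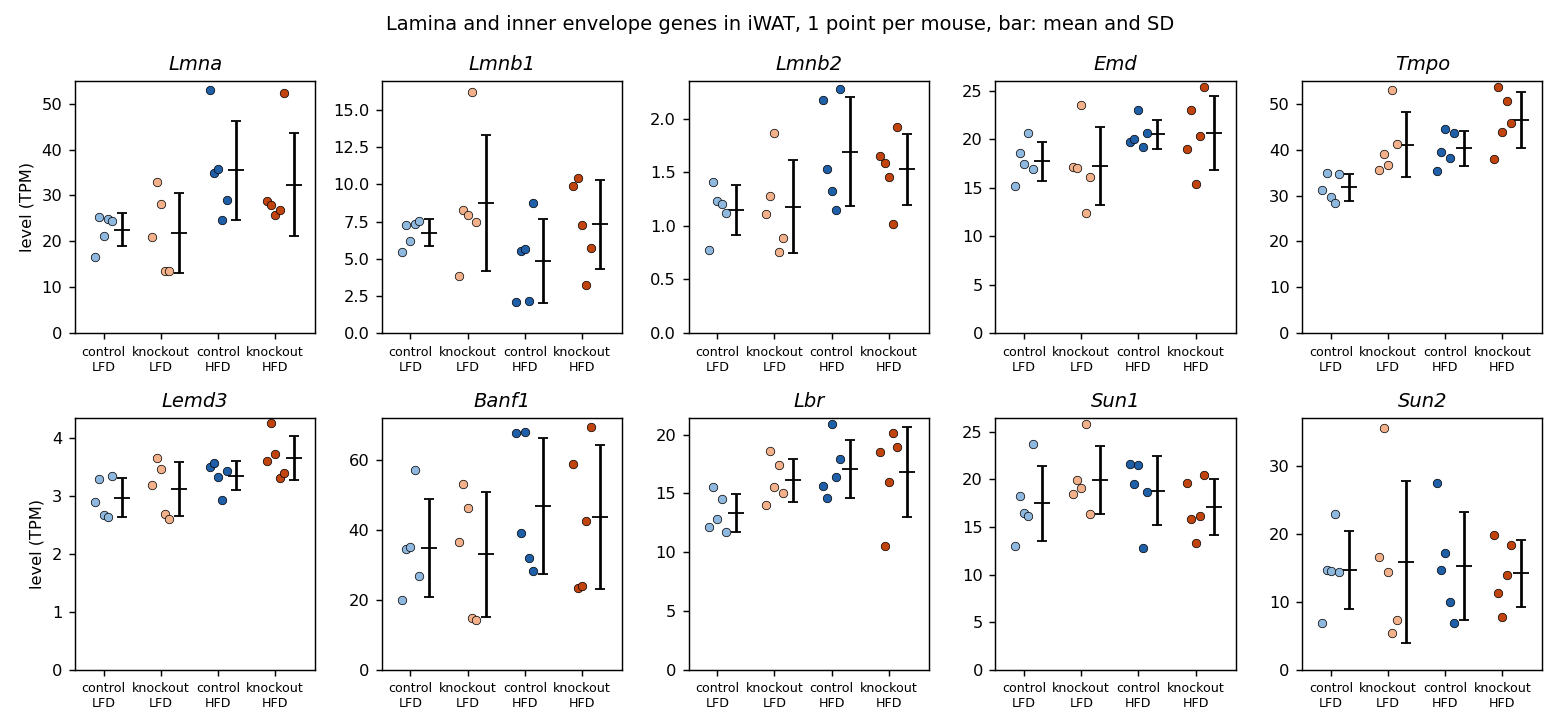
Level of each of the 10 genes in TPM (vertical axis, from 0) by group (horizontal axis), with 1 point per mouse and the mean and SD of 5 mice as a bar. *Lmna* reaches 52.9 TPM in control HFD mouse 11 and 52.3 TPM in knockout HFD mouse 21, and the *Tmpo* points of control LFD mice all lie below those of the other groups.

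*Lmna* (ENSMUSG00000028063, chr3:88285070-88313878 on the minus strand of NCBIM37, also called mm9) ends in alternative ways. The endings are shown because lamins A and C part there. The transcript values below are estimates for whole transcripts and not counts of reads at these endings. Lamins A and C share their first 1705 coding bases. In the lines below the last shared bases are in lower case and the bases particular to the ending are in capitals. The lamin A ending runs over the junction of exons 10 and 11 of 12 (chr3:88286513-88287256), and the lamin C ending reads on within exon 10 to its stop codon (chr3:88287219-88287256).
lamin A ending: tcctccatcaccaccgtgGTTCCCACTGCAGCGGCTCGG
lamin C ending: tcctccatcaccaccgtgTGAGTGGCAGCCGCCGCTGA
Lamin A goes on to a total of 1998 coding bases and lamin C stops at 1725. Only the lamin A end carries the signal to which a farnesyl group is added, as the B-type lamins do. The last 4 codons before the stop, in capitals, are shown for lamin A (chr3:88285996-88286270) and lamin B2 (chr10:80365604-80365633).
lamin A last codons: cagagctcccagaacTGCAGCATCATGtaa
lamin B2 last codons: actacctcaaggggcTGCCGACTGATGtga
Another coding transcript has a start of its own, that of lamin C2, which is known from germ cells in meiosis. Its 18 own coding bases are in capitals (chr3:88292338-88297178), and its other 1371 coding bases are the last ones of lamin C.
lamin C2 start: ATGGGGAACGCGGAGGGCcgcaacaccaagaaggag
All of these were read from the GENCODE vM1 transcript sequences, with coordinates on NCBIM37 from the GENCODE vM1 exons.

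*Lmna* was higher on HFD than on LFD in the group means of both genotypes, and the genotypes overlapped on each diet. It stood at 16.7, 25.3, 21.3, 24.8 and 24.5 TPM in control LFD mice 1 to 5 and at 52.9, 34.9, 35.9, 24.6 and 29.0 TPM in control HFD mice 11 to 15. In knockout mice it stood at 20.9, 33.0, 28.2, 13.6 and 13.5 TPM on LFD (mice 6 to 10) and at 28.8, 28, 25.8, 26.8 and 52.3 TPM on HFD (mice 17 to 21). Control HFD mouse 14 lay within the LFD range, knockout LFD mouse 7 lay above 4 of the 5 knockout HFD mice, and knockout HFD mouse 21 lay far above the others of its group. Fitted apart, the log2 fold change of HFD against LFD was 0.46 (SE 0.19, 95% interval 0.04 to 0.88, adjusted p = 0.198) in control mice and 0.48 (SE 0.24, 95% interval -0.04 to 1.0, adjusted p = 0.296) in knockout mice, and edgeR called neither. A fit of all 20 libraries with genotype and diet as terms, added after these values were seen, gave 0.47 (SE 0.16, 95% interval 0.14 to 0.81, adjusted p = 0.0456) and called it. Without knockout HFD mouse 21 the value was 0.37 (adjusted p = 0.104) and the call was lost, while it held without each of the other 19 mice in turn. The background of this fit was high, with 25.2% of 15574 genes called. Knockout against control gave -0.18 (SE 0.22, 95% interval -0.65 to 0.30, adjusted p = 0.934) on LFD and -0.17 (SE 0.22, 95% interval -0.64 to 0.31, adjusted p = 0.999) on HFD.

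The B-type lamin genes moved less clearly. *Lmnb2* (chr10:80363948-80380990, minus strand) was the least abundant member, with 0.780, 1.41, 1.23, 1.20 and 1.12 TPM in control LFD, 1.11, 1.28, 1.86, 0.756 and 0.886 TPM in knockout LFD, 2.18, 1.54, 1.33, 1.15 and 2.28 TPM in control HFD and 1.66, 1.58, 1.45, 1.02 and 1.92 TPM in knockout HFD mice. All 4 groups overlapped. Its log2 fold change of HFD against LFD was 0.38 (SE 0.17, 95% interval 0.03 to 0.74, adjusted p = 0.13) in the fit of all libraries, which missed the threshold.

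*Lmnb1* was the member with the largest knockout values, and here the scale mattered. Its levels were 5.47, 7.25, 6.19, 7.33 and 7.54 TPM in control LFD and 3.81, 8.29, 7.95, 16.3 and 7.47 TPM in knockout LFD mice, and 2.11, 5.54, 5.66, 2.16 and 8.77 TPM in control HFD and 9.89, 10.5, 7.24, 3.22 and 5.74 TPM in knockout HFD mice. The genotypes overlapped on both diets in TPM. In counts scaled by TMM (log2 CPM) the LFD groups did not overlap, with 2.73, 3.23, 3.35, 3.06 and 3.27 in control and 3.69, 3.67, 3.38, 4.95 and 3.59 in knockout mice, and knockout mouse 9 stood apart from its group. Of the 10 genes *Lmnb1* alone was without overlap on this scale, where 0.723% of tested genes were without overlap and higher in knockout mice on LFD. The edgeR log2 fold change was 0.83 (SE 0.29, 95% interval 0.20 to 1.47, adjusted p = 0.929) on LFD, with an unadjusted p of 0.0143, and 0.38 (SE 0.22, 95% interval -0.10 to 0.85, adjusted p = 0.999) on HFD. Both diets together gave 0.60 (SE 0.19, 95% interval 0.21 to 0.99, adjusted p = 0.47), and *Lmnb1* was not called in any of these. TPM and counts gave different weights to a short transcript (ENSMUST00000128651, retained intron in the annotation), which took 53.3% of the TPM of *Lmnb1* but 17.9% of its counts on average. It was listed at 0 in knockout LFD mouse 6, control HFD mice 11 and 14 and knockout HFD mouse 20, where the *Lmnb1* level in TPM was low. This transcript was singled out after its values were seen. The full length transcript alone stood at 1.27, 2.24, 2.03, 1.43 and 2.01 TPM in control LFD, 3.81, 3.43, 2.58, 6.98 and 2.72 TPM in knockout LFD, 2.11, 1.89, 1.97, 2.16 and 3.50 TPM in control HFD and 1.81, 3.02, 3.13, 3.22 and 2.74 TPM in knockout HFD mice.

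The balance of A-type to B-type lamins was measured as the log2 ratio of *Lmna* to the sum of *Lmnb1* and *Lmnb2*. From TPM it was 1.5 ± 0.0524 in control LFD, 1.15 ± 0.97 in knockout LFD, 2.52 ± 0.822 in control HFD and 1.91 ± 0.750 in knockout HFD mice (SD, n = 5). The difference of HFD from LFD in control mice was 1.011, with a two-sided exact permutation p of 0.0476 that did not hold after adjustment over 8 ratio tests (adjusted exact p = 0.381). With the full length *Lmnb1* transcript in place of the gene, an alternative added after the values were seen, the same difference was 0.18 (exact p = 0.484). From counts it was 0.32 (exact p = 0.19). Knockout minus control on LFD was -0.35 in TPM (exact p = 0.508). It was -0.73 in counts (exact p = 0.0159, adjusted 0.127) and -0.89 with the full length transcript (exact p = 0.0238, adjusted 0.19). The weight given to the short *Lmnb1* transcript thus moved both values.

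Among the 7 deposited *Lmna* transcripts, 3 held on average at least 5% of the gene's TPM. Lamin A took 41.9%, the lamin C2 transcript 43.9% and lamin C 11.5%. Lamin C was listed at 0 in 7 of the 20 libraries, and its share reached 37.9% in control HFD mouse 13. The lamin C2 transcript shares 1371 of its 1389 coding bases with the end of lamin C, so reads from that end can be given to either, and how they were split was not tested. The share of lamin A in the summed TPM of the lamin A, C and C2 transcripts was 39.3, 44.7, 49.3, 50.4 and 42.8% in control LFD mice. It was 44.8, 40.6, 49.3, 45.3 and 53.3% in knockout LFD mice. On HFD it was 35.4, 48, 31.5, 48 and 39.8% in control and 36.3, 42, 42.9, 37.6 and 39.8% in knockout mice. The groups of each genotype overlapped between the diets. The mean on HFD minus that on LFD was -6.94 percentage points in knockout mice (two-sided exact permutation p = 0.0238, adjusted over 4 tests 0.0952, which missed the threshold of 0.05) and -4.73 in control mice (exact p = 0.262, adjusted 0.524). The genotypes differed by -0.84 on HFD (exact p = 0.833) and 1.37 on LFD (exact p = 0.619).

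*Tmpo* (ENSMUSG00000019961, chr10:90610316-90634759, minus strand) had the highest mean TPM of the members, nearly level with *Banf1* (39.9 and 39.5 TPM). Its LAP2 proteins share an N-terminal part with the LEM domain and differ after it. LAP2 alpha, which has no membrane anchor and binds A-type lamins inside the nucleus, comes from transcript Tmpo-201, and the membrane-bound forms come from transcripts such as Tmpo-202. Both share 562 coding bases. The point where they part is shown with the last shared bases in lower case and the following bases in capitals. Its coordinates on NCBIM37 are chr10:90626086-90626805 for Tmpo-201 and chr10:90621570-90626805 for Tmpo-202, with bases from the GENCODE vM1 transcript sequences. The share of Tmpo-201 given below is an estimate for the whole transcript and not a count of reads at this point.
Tmpo alpha side: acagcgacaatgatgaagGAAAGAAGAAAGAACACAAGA
Tmpo other side: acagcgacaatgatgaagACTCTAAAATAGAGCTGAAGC
*Tmpo* levels were 31.2, 34.9, 29.8, 28.3 and 34.8 TPM in control LFD and 35.5, 39.1, 36.7, 53.0 and 41.3 TPM in knockout LFD mice. On HFD they were 35.3, 39.5, 44.6, 38.2 and 43.7 TPM in control and 38.0, 53.7, 43.8, 50.6 and 45.8 TPM in knockout mice. The control LFD mice were thus the lowest 5 of the 20 for *Tmpo*, without overlap with either the knockout LFD or the control HFD mice. Of the 10 genes *Tmpo* alone was without overlap in TPM in these 2 comparisons, where 1.3% (knockout higher on LFD) and 8.32% (HFD higher in control mice) of tested genes were. This held on the TPM scale only. In TMM-scaled counts the log2 values were 6.03, 5.95, 5.94, 5.81 and 5.96 in control LFD, 5.98, 5.91, 5.96, 6.79 and 6.45 in knockout LFD and 5.66, 5.97, 5.97, 6.14 and 6.13 in control HFD mice, and all of these groups overlapped. The edgeR log2 fold change was 0.32 (SE 0.17, 95% interval -0.06 to 0.69, adjusted p = 0.929) for knockout against control on LFD and 0.03 (SE 0.11, 95% interval -0.22 to 0.28, adjusted p = 0.912) for HFD against LFD in control mice. limma on log2(TPM + 1) gave 0.33 for the latter and called it (adjusted p = 0.0875), together with *Lmna*, but on that scale the median of all tested genes was itself shifted by 0.13 and 14% of genes were called.

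Of the 7 *Tmpo* transcripts, Tmpo-207 held on average 45.5% of the gene's TPM, Tmpo-203 15.8%, Tmpo-201 15.6% and Tmpo-202 10.6%. Tmpo-207 is annotated with 2115 bases, of which 321 are coding, against 837 to 2082 coding bases in the other *Tmpo* transcripts. The gene level in TPM thus rests in large part on a transcript with a short coding stretch. Tmpo-202 was listed at 0 in 6 libraries. Control HFD mouse 14 stood apart, with Tmpo-207 listed at 0 and Tmpo-205 and Tmpo-202 in its place at 32.9% and 34.9%. The LAP2 alpha transcript Tmpo-201 took 18.7, 17.4, 15.2, 18.8 and 15.7% in control LFD and 18.4, 16.1, 15.5, 19.6 and 19.5% in knockout LFD mice. On HFD it took 15.0, 14.2, 12.6, 16 and 11.2% in control and 11.1, 17.6, 13.5, 14.1 and 11.9% in knockout mice. Its mean share on HFD minus that on LFD was -3.35 percentage points in control mice and -4.16 in knockout mice, with overlap of the groups (two-sided exact permutation p = 0.0317 in each). Neither passed after adjustment over the 28 share tests of 7 transcripts in 4 comparisons (adjusted exact p = 0.296). The genotypes differed by -0.18 points on HFD (exact p = 0.889) and 0.63 on LFD (exact p = 0.571). In edgeR fits of all transcripts, 0 of the 7 main *Lmna* and *Tmpo* transcripts were called in any of the 4 comparisons. The lowest unadjusted p was 0.0249, for Tmpo-207 in knockout mice (HFD against LFD, log2 fold change 0.38, SE 0.14), and no other main transcript was below 0.05. The full length *Lmnb1* transcript, outside this count, had an unadjusted p of 0.0124 for knockout against control on LFD (log2 fold change 1.0, SE 0.33, adjusted p = 1). Of all transcripts 0.0% and 0.00286% were called for genotype on HFD and LFD, and 1.4% and 1.1% for diet in control and knockout mice. A test of transcript usage within genes called neither *Lmna* nor *Tmpo* in any comparison, beside 0.561%, 0.158%, 1.26% and 1.31% of genes in the same order.

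**Figure D2:**
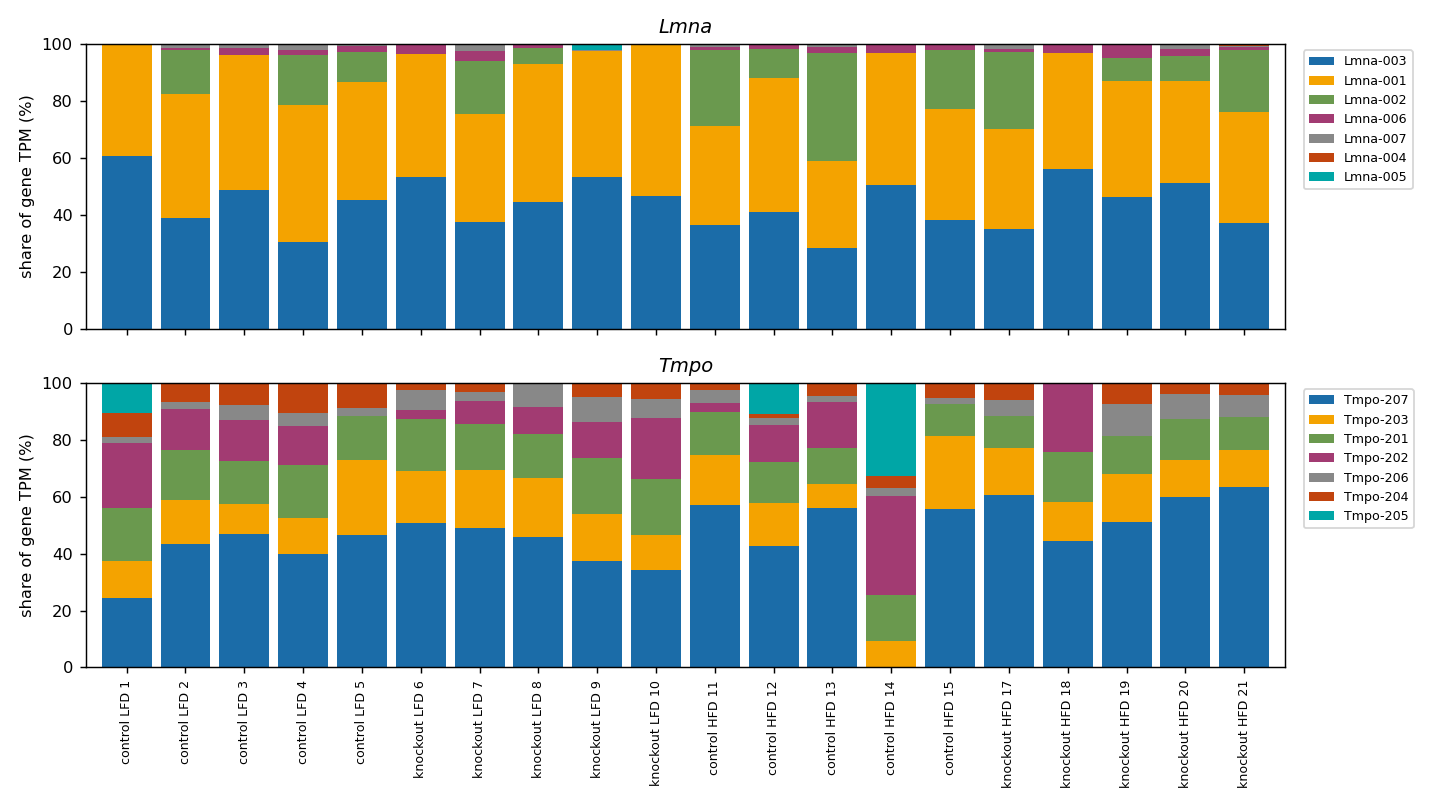
Share of each deposited transcript in the summed TPM of *Lmna* (upper panel) and *Tmpo* (lower panel), in percent, with 1 stacked bar per mouse in the order of the labels. Lamin A (Lmna-001) keeps a share of 30.5% to 53.3% in every library, while lamin C (Lmna-002) and lamin C2 (Lmna-003) trade places, and control HFD mouse 14 has no Tmpo-207.

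The other LEM domain genes and *Banf1* were not called in the main edgeR fits of pairs of groups or of all 20 libraries. An alternative fit given below called *Lemd3* for diet. *Emd* (chrX:71500026-71506887) encodes emerin, lost in Emery-Dreifuss muscular dystrophy, and lay between 12.4 and 25.4 TPM, with group means of 17.8 ± 2.02 TPM in control LFD, 17.3 ± 4.01 TPM in knockout LFD, 20.5 ± 1.48 TPM in control HFD and 20.6 ± 3.81 TPM in knockout HFD mice. Its log2 fold change of knockout against control was -0.11 (SE 0.17) on LFD and -0.03 (SE 0.12) on HFD. *Lemd3* (chr10:120360469-120416388) encodes MAN1, which also binds SMAD proteins, and was the steadiest member at 2.61 to 4.27 TPM. The fit of all libraries gave 0.16 (SE 0.08, 95% interval 0.00 to 0.32, adjusted p = 0.155) for HFD against LFD. *Banf1* (chr19:5364641-5366645) was among the most variable, with 19.9, 34.6, 35, 57.2 and 26.9 TPM in control LFD, 36.5, 53.1, 46.2, 14.7 and 14.4 TPM in knockout LFD, 67.6, 39.1, 67.9, 31.8 and 28.1 TPM in control HFD and 58.9, 23.3, 23.9, 42.5 and 69.3 TPM in knockout HFD mice. Every group held mice that differed by more than the group means did. Its knockout values of -0.20 (SE 0.39, 95% interval -1.05 to 0.64, adjusted p = 0.949) on LFD and -0.14 (SE 0.30, 95% interval -0.80 to 0.52, adjusted p = 0.999) on HFD had the widest intervals of the 10 genes.

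*Lbr* (chr1:183745447-183772532), whose product is also a sterol reductase, had group means of 13.3 ± 1.61 TPM in control LFD, 16.1 ± 1.84 TPM in knockout LFD, 17.1 ± 2.46 TPM in control HFD and 16.8 ± 3.82 TPM in knockout HFD mice. Its edgeR values were 0.17 (SE 0.12) and -0.02 (SE 0.17) for the knockout on LFD and HFD, and 0.13 (SE 0.13) and -0.05 (SE 0.17) for diet in control and knockout mice. The SUN genes behaved unlike each other in their spread. *Sun1* (chr5:139676591-139725794) lay between 12.8 and 25.8 TPM. *Sun2* (chr15:79554500-79572966) stood at 6.83, 14.7, 14.4, 22.9 and 14.4 TPM in control LFD, 16.6, 35.5, 14.3, 5.36 and 7.37 TPM in knockout LFD, 27.5, 14.6, 17.1, 9.91 and 6.88 TPM in control HFD and 19.8, 11.3, 7.75, 13.9 and 18.3 TPM in knockout HFD mice, so that within knockout LFD mice alone it spanned 5.36 to 35.5 TPM. The log2 ratio of *Sun2* to *Sun1* was -0.33 ± 0.552, -0.63 ± 1.16, -0.44 ± 0.640 and -0.33 ± 0.309 in the same order (SD, n = 5), and no comparison of it had an exact permutation p below 0.603.

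Taken as a group, 0 of the 10 genes were called by edgeR for the knockout on HFD, where 0.00657% of 15228 genes were called, and 0 of 10 on LFD, where 0.00636% of 15717 were. DESeq2 also called 0 of 10 on each diet, beside 100 of 15228 genes on HFD and 17 of 15717 on LFD. So did limma, beside 3 and 2 genes on log2(TPM + 1). At an unadjusted p under 0.05 there were 0 of 10 on HFD, beside 709 of 15228 genes. On LFD there was 1 of 10, *Lmnb1*, beside 803 of 15717 genes. On HFD 4 members were higher and 6 lower in knockout mice, with a median log2 fold change of -0.03 (all tested genes 0.01), and on LFD 3 were higher and 7 lower, with a median of -0.07 (all genes -0.02). The signs of *Sun1*, *Lmnb2* and *Lemd3* on LFD and of *Sun2* on HFD turned under limma on log2(TPM + 1), and those of *Sun1* and *Sun2* also with length offsets. For diet 0 of 10 were called in control mice, beside 9.32% of 15311 genes, and 0 of 10 in knockout mice, beside 9.4% of 15705 genes. In control mice 1 member, *Lmna*, had an unadjusted p under 0.05, beside 3166 of 15311 genes. In knockout mice none had, beside 3115 of 15705 genes. DESeq2 called 0 of 10 in both, and limma called *Lmna* and *Tmpo* in control mice. The members' median was 0.06 in control and 0.12 in knockout mice (all genes -0.04 and 0.00). The genotype effect on HFD minus that on LFD, fitted as an interaction, was called for 0 of 10 members and for 0.0% of genes by edgeR, with 0 members and 560 genes at an unadjusted p under 0.05. DESeq2 called 17 genes there, 0 of them members. Groups without overlap in any other pair were looked for on both scales. In control mice HFD against LFD held 0 of 10 members without overlap that were lower in TPM (1.46% of genes) and 0 of 10 higher or lower in TMM-scaled counts (4.22% and 3.65%). In knockout mice it held 0 of 10 in TPM (5.01% higher, 2.94% lower) and 0 of 10 in counts (3.62% and 4.81%). The knockout on HFD held 0 of 10 in TPM (0.538% and 0.151%) and in counts (0.438% and 0.219%), and on LFD 0 of 10 were lower without overlap (0.102% and 0.365%). The knockout comparisons share no mice with each other but share their controls or knockouts with the diet comparisons. With both diets in 1 fit, 0 of 10 members and 0.0385% of genes were called for genotype. *Lmnb1* and *Tmpo* had an unadjusted p of 0.00451 and 0.0459 there, beside 1159 of 15574 genes under 0.05.

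**Figure D3:**
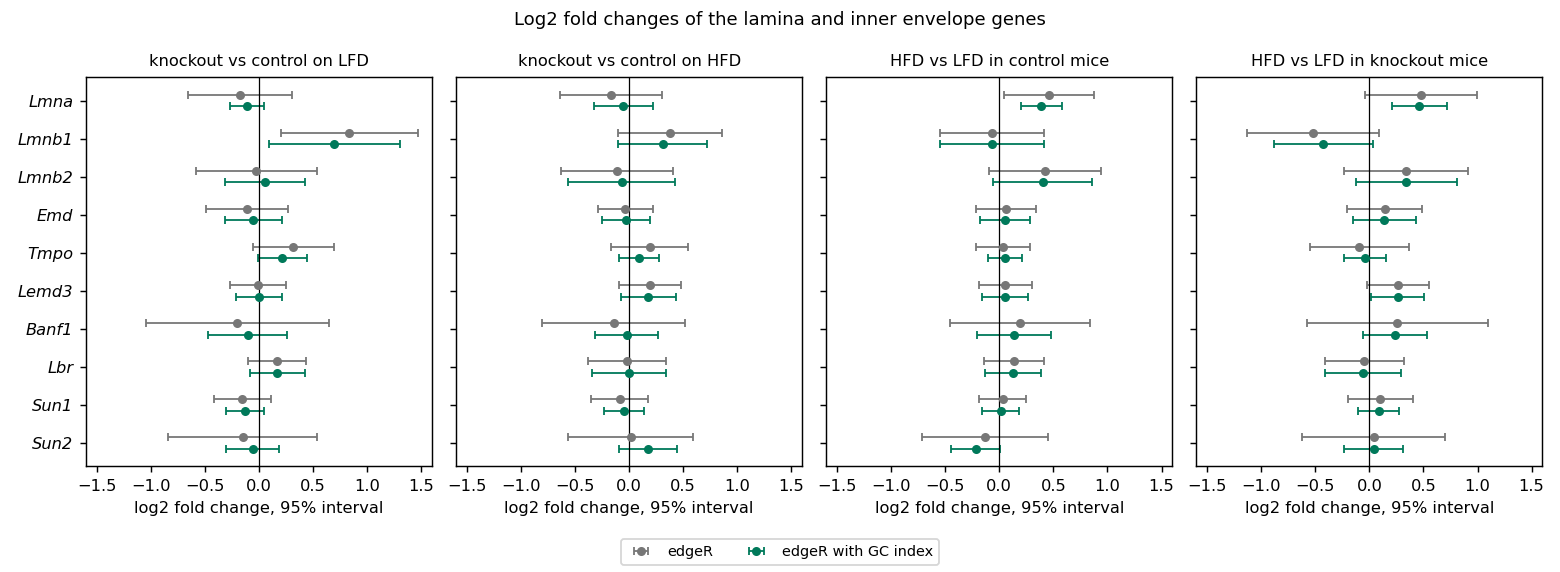
Log2 fold change (horizontal axis) with its 95% interval for each of the 10 genes (rows) in 4 comparisons (panels), from edgeR (grey) and from edgeR with the GC index of each library as a covariate (green). The only values called are those of *Lmna* in both diet panels with the covariate. In every panel *Banf1* and *Sun2* are among the intervals that narrow most. *Lmna* joins them for the knockout on LFD and diet in control mice, and *Tmpo* in the other panels.

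The levels were also set beside a measure of base composition. For each library a GC index was computed as the median deviation, in TMM-scaled log2 CPM, of genes in the upper quartile of GC content (at least 54.6%) from their own means, minus the same median over genes in the lower quartile (at most 45.3%). It could be computed from 13920 genes, 89.4% of those tested, and it comes from the same libraries as the levels set beside it. The index ran from -0.76 in knockout LFD mouse 9 to 0.74 in control HFD mouse 11. Group means were 0.0503 in control LFD, -0.0823 in knockout LFD, 0.125 in control HFD and -0.0303 in knockout HFD mice, with SDs of 0.433 to 0.564, so the index varied within every group. Among the members the GC content of the transcripts went from 43.9% for *Tmpo* and 44.5% for *Lbr* to 58.0% for *Sun2* and 60.3% for *Lmna*. *Lmna*, *Sun2* and *Lmnb2* lie in the upper quartile and *Tmpo* and *Lbr* in the lower one. As a description over the 20 libraries, Pearson's r between log2 TPM and the index was 0.92 for *Banf1*, 0.90 for *Sun2*, 0.74 for *Lmna* and 0.74 for *Tmem120a*. It was 0.54 for *Lmnb2*, 0.54 for *Emd*, 0.41 for *Sun1*, 0.34 for *Lbr*, 0.20 for *Lemd3*, -0.26 for *Lmnb1* and -0.38 for *Tmpo*. On TMM-scaled counts the last of these was -0.85 and that of *Sun1* was 0.78. Single mice went either way for *Lmna*. Control LFD mouse 4 stood at 24.8 TPM with an index of 0.58, and control HFD mouse 12 at 34.9 TPM with an index of 0.03. Knockout LFD mouse 7 stood at 33.0 TPM with an index of 0.57, and control HFD mouse 14 at 24.6 TPM with an index of -0.34.

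**Figure D4:**
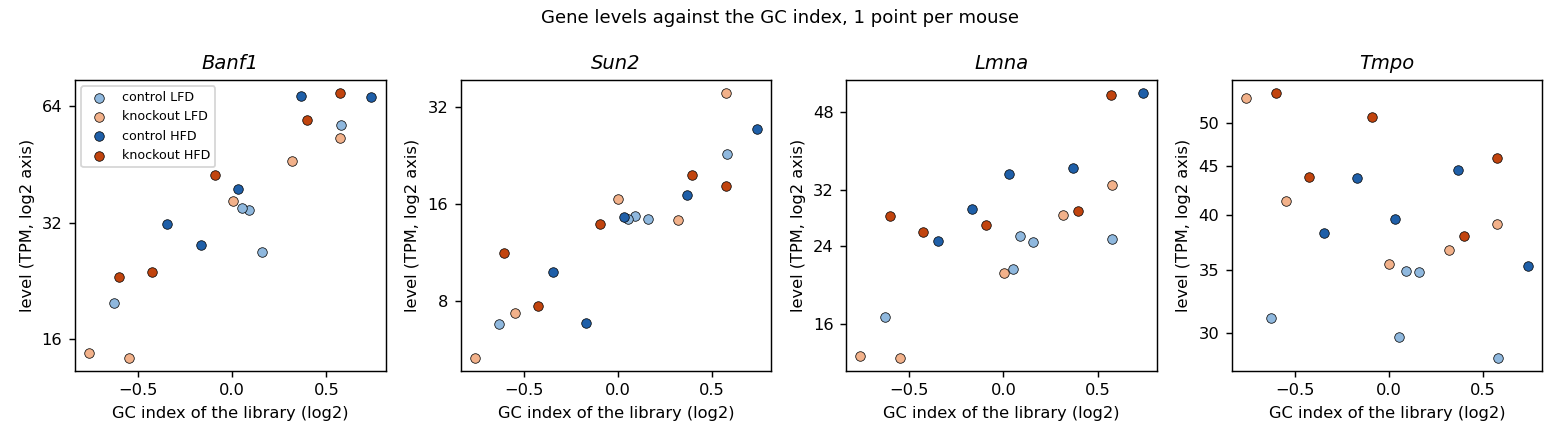
Level in TPM (vertical log2 axis) against the GC index of the library (horizontal axis) for *Banf1*, *Sun2*, *Lmna* and *Tmpo*, with 1 point per mouse coloured by group. *Banf1* and *Sun2* climb with the index in all groups, and in *Lmna* the HFD points (dark) mostly lie above LFD points (light) of like index.

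With the index as a covariate in edgeR, an alternative added after the data were seen, the intervals of the members were 0.328 to 1.0 times as wide as before. In control mice the *Lmna* value for HFD against LFD became 0.39 (SE 0.08, 95% interval 0.20 to 0.58, adjusted p = 0.0143), and in knockout mice 0.46 (SE 0.12, 95% interval 0.21 to 0.72, adjusted p = 0.0213). Both were called, as the only members called in these comparisons, beside 23.6% and 23.2% of all genes. In the fit of all 20 libraries the *Lmna* value was 0.43 (SE 0.07, 95% interval 0.28 to 0.58, adjusted p = 0.000127), and it was called without each of the 20 mice in turn. *Lmnb2* at 0.37 (SE 0.14, 95% interval 0.09 to 0.66, adjusted p = 0.0447) and *Lemd3* at 0.16 (SE 0.07, 95% interval 0.02 to 0.31, adjusted p = 0.0836) were called too in that fit, beside 38.7% of all genes. *Lmnb2* was called without each of the 20 mice in turn and *Lemd3* in 7 of these 20 fits. For the knockout none of the 10 genes was called with the index, beside 0.0197% of genes on HFD, 0.0191% on LFD and 0.0321% with both diets together. The intervals for *Lmna* then ran from -0.33 to 0.22 on HFD and -0.27 to 0.05 on LFD, and those for *Banf1* from -0.31 to 0.27 and -0.47 to 0.26. *Lmnb1* kept a value of 0.70 (SE 0.27, 95% interval 0.09 to 1.30, adjusted p = 0.509) on LFD. *Tmem120a* was called on each diet with the index, at -1.54 (SE 0.10, 95% interval -1.76 to -1.31, adjusted p = 0.000146) on HFD and -1.5 (SE 0.16, 95% interval -1.85 to -1.15, adjusted p = 0.0106) on LFD. The part of base composition in any of these differences was not tested beyond these fits.

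Marker lists of other cell types were set beside the members. Of the 40 relations of members with lists, the one with the lowest adjusted p on TPM was that of *Tmpo* with 13 genes of proliferating cells (*Mki67*, *Top2a*, *Cdk1* and others). Over the 20 libraries, on log2(TPM + 1), Pearson's r was 0.86 and Spearman's rho 0.92 (permutation p = 1e-05 for each, the smallest that 100000 resamples give, adjusted 0.0004 over the 10 members and 4 lists). Without the 2 libraries farthest from the median of the list r was 0.79, after centring on the group means it was 0.68, and on TMM-scaled counts 0.64. *Banf1* and *Sun2* had an r of -0.41 and -0.52 with the list (adjusted permutation p = 0.435 and 0.267), and after centring -0.78 and -0.74, larger in size than that of *Tmpo*. The summed list stood at 87.9 to 114 TPM in control LFD, 128 to 236 in knockout LFD, 136 to 236 in control HFD and 134 to 304 in knockout HFD mice. Its control LFD values thus lay below those of every other group, as did those of *Tmpo*. In knockout LFD mice all 13 genes were higher in the fit, with a median log2 fold change of 0.77 and 0 called. At an unadjusted p under 0.05 there were 6 of them, beside 803 of 15717 genes. In control mice all 13 were higher on HFD and 3 were called, beside 9.32% of all genes. In knockout mice 7 were higher and 6 lower, with 0 called by edgeR, beside 1476 of 15705 genes. At an unadjusted p under 0.05 there were 0, beside 3115 genes. Beside *Lmnb1*, which had its highest level in knockout LFD mouse 9, the list reached 236 TPM in that mouse, the highest of its group. The r of *Lmnb1* with the list was 0.28 on TPM (adjusted permutation p = 0.594) and 0.79 on TMM-scaled counts. The part of dividing cells in the *Tmpo* and *Lmnb1* values was not tested.

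*Lmna* went with the 10 white adipocyte genes, with r = 0.66 (permutation p = 0.00147, adjusted 0.0294) and rho = 0.61 (permutation p = 0.00522, adjusted 0.104). Without the 2 farthest libraries r was 0.57 and within groups, after centring, 0.41. The adipocyte list stood at 21997 to 29775 TPM in control LFD, 20059 to 26134 in knockout LFD, 28658 to 41694 in control HFD and 25640 to 38319 in knockout HFD mice, with overlap between the diets in each genotype. In the fit of all libraries 7 of its 10 genes were higher and 3 lower on HFD, and 3 were called, all higher, beside 25.2% of all genes. The part of adipocyte content in the *Lmna* value was not tested. The fibre list was lower in control HFD mice (9.09 to 61.9 TPM) than in knockout HFD mice (50.6 to 1688 TPM), with overlap, and reached 3921 TPM in control LFD mouse 5. Its r with the members ran from -0.38 (*Emd*) to 0.36 (*Lmnb1*), and that of the lymphocyte list from -0.18 (*Lemd3*) to 0.42 (*Lbr*). None of these passed adjustment.

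**Figure D5:**
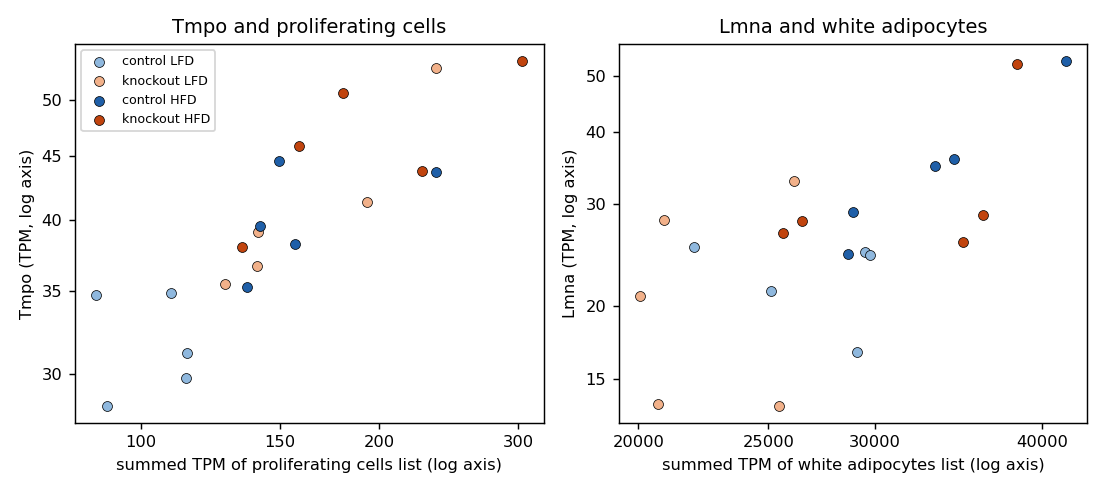
Level of *Tmpo* against the summed TPM of 13 proliferating cell genes (left) and of *Lmna* against that of 10 white adipocyte genes (right), all axes logarithmic, with 1 point per mouse coloured by group. The 5 control LFD mice sit at the lower left of the *Tmpo* panel, and the highest *Lmna* points, control HFD mouse 11 and knockout HFD mouse 21, are the mice with the highest adipocyte sums.

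Among the 45 pairs of members the closest was *Sun2* with *Banf1*, at r = 0.86 and rho = 0.85 over 20 libraries (permutation p = 1e-05 for each, the smallest possible, adjusted 0.000225 and 0.00045), r = 0.80 without the 2 farthest libraries and 0.90 within groups. *Lmna* followed *Banf1* at r = 0.82, *Lmnb2* at 0.79 and *Emd* at 0.73, with r of 0.83, 0.69 and 0.62 within groups. These genes also followed the GC index, whose part in the pairs was not tested. The relation of *Tmpo* to *Sun1* depended on the scale, with r = 0.20 on TPM and -0.83 on TMM-scaled counts.

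Other genes of the envelope were taken from lists of lamin processing, LINC complex and torsin partners, other inner membrane proteins, lamina-bound chromatin partners and the nuclear pore. Of their 57 genes 56 were found and 49 or 50 were tested per comparison. For the knockout 0 of 50 were called by edgeR on either diet, beside 0.00657% of genes on HFD and 0.00636% on LFD. At an unadjusted p under 0.05 there were 2 of 50 on HFD, beside 709 of 15228 genes, and 1 on LFD, beside 803 of 15717. In the fit of both diets 0 of 50 were called, beside 0.0385% of genes, and 3 had such a p, beside 1159 of 15574 genes. *Tmem120b*, the paralogue of the removed gene, had a log2 fold change of -0.0030 (SE 0.38, adjusted p = 0.999) on LFD and -0.17 (SE 0.30, adjusted p = 0.999) on HFD. *Zmpste24*, which trims prelamin A, had 0.16 (SE 0.15, adjusted p = 0.933) and 0.25 (SE 0.17, adjusted p = 0.999), and *Tmem43*, encoding LUMA, -0.31 (SE 0.18, adjusted p = 0.929) and -0.35 (SE 0.18, adjusted p = 0.999). For diet 3 of 49 were called in control mice and 5 of 49 in knockout mice, where 9.32% and 9.4% of all genes were. In control mice all 3 were lower on HFD: *Syne1*, encoding nesprin 1, at -0.54 (SE 0.17, adjusted p = 0.0864), *Gmcl1* at -0.61 (SE 0.16, adjusted p = 0.0523) and the pore membrane gene *Pom121* at -0.86 (SE 0.23, adjusted p = 0.056). In knockout mice *Narf*, whose product binds prelamin A, was higher at 0.48 (SE 0.14, adjusted p = 0.0752). *Syne1* at -0.71 (SE 0.11, adjusted p = 0.0051), *4831426I19Rik* (nesprin 3) at -0.71 (SE 0.20, adjusted p = 0.0602), *Nup160* at -0.57 (SE 0.16, adjusted p = 0.0551) and *Pom121* at -1.37 (SE 0.19, adjusted p = 0.00261) were lower. In the fit of all libraries 2 of 50 were called higher and 7 lower on HFD, beside 25.2% of all genes. The nesprin genes *Syne1* (-0.62), *4831426I19Rik* (-0.55) and *Syne2* (-0.30) were called lower, as were *Pom121* (-1.11), *Nup160*, *Nup98* and *Vrk2*, and *Narf* (0.31) and *Nup50* higher. These directions are those of TMM-scaled counts. In mean TPM of control mice *Syne2* (30.9 on LFD, 32.7 on HFD) and *Nup98* (22.7 and 24.5) were higher on HFD. The other genes called lower were lower there, and in knockout mice all of them were. The nesprins bind the SUN proteins, whose own genes had log2 values of 0.07 for *Sun1* and -0.04 for *Sun2* in the fit of all libraries and were not called. *Syne1* is also strongly used by muscle. The fibre list was lower on HFD for 15 of 15 genes in control mice (median log2 fold change -5.31, 11 called, beside 9.32% of all genes). In knockout mice 13 of 15 were higher (median 0.66), with 0 called by edgeR and 0 at an unadjusted p under 0.05. The part of muscle content in the *Syne1* values was not tested.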

How the data were processed

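Total RNA was depleted of ribosomal RNA and sequenced. The authors quantified transcripts with Salmon 0.13.1 and deposited estimated counts and TPM for each transcript and mouse. STAR 2.5.3 and mm9 are named in the submitters' processing notes. Here 94334 of 96533 transcripts were matched to GENCODE vM1 genes and summed per gene, and the estimated counts were rounded to whole numbers. Genes were kept if they averaged 0.5 TPM or more and tested with edgeR 4.0.16 (TMM, quasi-likelihood, Benjamini-Hochberg over all genes tested, called at an adjusted p under 0.1), per comparison on its own groups. The study's tool, DESeq2 1.42.0, and limma 3.58.1 on log2(TPM + 1) or log2(TPM + 0.1) were alternatives, with length offsets, no filter and each mouse left out. Ratios and shares were compared with two-sided exact permutation tests, whose smallest p was 0.00794 with 5 mice a group. Labels number the mice singly, so p-values measure the spread between mice. All 10 members were named. Of the other envelope lists, genes called and the 3 of highest TPM per list could be named. The fits of all 20 libraries, the GC index and the full length *Lmnb1* alternative were added after the data were seen. Members and lists were chosen with earlier results of these data known. Scripts were tested on simulated data. Depth intervals were not given, as all values are over 5 mice.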

Additional observations from a re-analysis of the deposited data

Results flagged for a closer look

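Of the 52 groups of values examined, 1 held a mouse whose distance from its nearest neighbour was large for the range of its group. *Lmna* stood at 52.29 TPM in knockout HFD mouse 21, while the other 4 mice of that group lay between 25.79 and 28.78 TPM, a gap of 0.887 of the whole range. Chance flags about 1 in 20 groups in this way. The same mouse had the highest *Banf1* level of all libraries and the highest adipocyte marker sum of its group.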

How the results depend on the processing

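No paired analysis was possible because the labels give each mouse a number of its own, which no 2 groups share. Genes called for the knockout numbered 1 on HFD, and 100 with DESeq2, 26 with no filter, 5 with length offsets, 3 and 4 with limma (pseudocount 1 and 0.1), 3 with all 20 libraries in the fit and 3 with the GC index. Leaving out 1 mouse gave 1 to 58, with 58 without knockout mouse 21, 10 without control mouse 12 and 2 without control mouse 15. On LFD the count was 1, and 17 with DESeq2, 2 with either limma fit, 2 with all libraries, 3 with the GC index and 1 to 2 without 1 mouse. With both diets it was 6, and 32 with DESeq2 and 2 with length offsets. Genes called for diet numbered 1427 in control mice (2205 with DESeq2, 2148 with limma at pseudocount 0.1, 3617 with the GC index) and 1476 in knockout mice (2247 with DESeq2, 3640 with the GC index). Without 1 mouse they were 780 to 1845 in control mice, at 810, 873 and 868 without control LFD mice 2, 3 and 5 and 780 and 827 without control HFD mice 12 and 13. In knockout mice they were 753 to 1355, at 753 without LFD mouse 6 and 963 without HFD mouse 21. With both genotypes the GC index gave 6021. For the interaction DESeq2 called 17. limma shifted the median of all genes by 0.132 in control mice and called 1791 of 2139 genes higher, against 676 of 1427 in edgeR. In knockout mice limma called 1009 of 1534 higher and edgeR 714 of 1476, and with both genotypes 3552 of 4736 and 1954 of 3931. Members called for diet in control mice were 2 with either limma fit, beside 2139 and 2148 of 15311 genes, and 1 with the GC index, beside 3617. In knockout mice the GC index gave 1, beside 3640 of 15705 genes. With both genotypes limma gave 3, beside 4736 and 4719 of 15574 genes, and the GC index gave 3, beside 6021. Leaving out 1 mouse gave 0 to 3, beside 3432 to 4189 genes. It was 0 without knockout HFD mouse 21, 3 without control HFD mouse 14 and 2 without knockout LFD mouse 8, control HFD mouse 15 or knockout HFD mouse 20. The main transcripts called for diet in knockout mice numbered 0 to 1 without 1 mouse. The 1 came without HFD mouse 18, beside 250 of 35157 transcripts. Of 40 log2 values of members in the 4 comparisons of pairs of groups, 19 changed sign under some alternative, and none of these was called. They became, for the knockout on HFD *Lbr* 0.00081 (GC index), *Sun2* -0.10 (length offsets) and -0.022 and -0.018 (limma). They became, for the knockout on LFD *Lmnb2* 0.0050 (limma) and 0.053 (GC index), *Sun1* 0.10 (length offsets) and 0.19 and 0.20 (limma), *Lemd3* 0.051 and 0.065 (limma). They became, for diet in control mice *Sun1* -0.073 (length offsets). They became, for diet in knockout mice *Lbr* 0.033 and 0.034 (limma), *Sun1* -0.34 (length offsets) and -0.21 and -0.22 (limma), *Sun2* -0.24 (length offsets), *Tmpo* 0.056 (length offsets) and 0.18 and 0.18 (limma). Without 1 mouse in turn the ranges were, for the knockout on HFD *Lmna* -0.38 to 0.0029, *Lmnb2* -0.23 to 0.016, *Emd* -0.075 to 0.0032, *Lbr* -0.10 to 0.10, *Sun2* -0.16 to 0.22. They were, for the knockout on LFD *Lmnb2* -0.20 to 0.091, *Sun2* -0.43 to 0.059, *Lemd3* -0.036 to 0.036, *Banf1* -0.38 to 0.070. They were, for diet in control mice *Lmnb1* -0.30 to 0.0096, *Emd* -0.00066 to 0.14, *Sun1* -0.013 to 0.075, *Sun2* -0.34 to 0.077, *Tmpo* -0.014 to 0.11. They were, for diet in knockout mice *Lbr* -0.12 to 0.081, *Sun2* -0.13 to 0.31, *Tmpo* -0.21 to 0.077. Differences in single measures ranged without 1 mouse from -0.59 to 0.016 for the *Lmna* to B-type ratio (the knockout on LFD), -0.13 to 0.31 for the *Sun2* to *Sun1* ratio (the knockout on HFD), -0.67 to 0.11 for the *Sun2* to *Sun1* ratio (the knockout on LFD), -0.31 to 0.14 for the *Sun2* to *Sun1* ratio (diet in control mice), -0.10 to 0.67 for the *Sun2* to *Sun1* ratio (diet in knockout mice), -3.10 to 1.04 for the lamin A share (the knockout on HFD), -0.29 to 2.89 for the lamin A share (the knockout on LFD), -1.17 to 0.46 for the Tmpo-201 share (the knockout on HFD). From counts they became -0.0066 for the *Sun2* to *Sun1* ratio (diet in knockout mice), 0.73 for the lamin A share (the knockout on HFD), 0.26 for the Tmpo-201 share (the knockout on HFD). The causes were not tested. Nearly identical transcripts, such as lamins C and C2, limit what the transcript values can show, and 5 mice a group with a wide spread limit the genotype comparisons.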
